A study of Mus musculus with 16 samples.

Results

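The sirtuins, encoded by Sirt1 to Sirt7, and Nampt, the gene of the enzyme that feeds them, were examined in mouse tibialis anterior, a fast muscle of the lower leg. The members were the 8 genes of this set, found by matching the RefSeq accession of every non-control array probe to a gene symbol. Of the 8 genes, 7 had a probe, with 12 of the 41174 probes on the array and 7 of the 24832 genes tested. Sirt4 was not analysed here. Sirt2 had 3 probes, Sirt1, Sirt7 and Nampt had 2 each, and Sirt3, Sirt5 and Sirt6 had 1 each. All 12 probes were well above background on all 16 arrays, so none passed the filter on dim probes through a single group.

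Offspring were compared in 4 groups, which differed in the diet of the dam and in their own diet. The undernourished CR group came from dams given 50% less food in week 3 of gestation and was itself calorie restricted (CR), and the control CR group came from normally fed dams and was calorie restricted. The undernourished AL group had food-restricted dams and was fed ad libitum (AL), and the control AL group had normally fed dams and was fed ad libitum. Each group had 8 mice combined in pairs, which gives 4 replicate pools of 2 mice a group, each on a separate 1-colour array. The labels give no strain, age or sex, no degree or length of calorie restriction, and not whether pooled mice shared a litter, so p-values measure the spread between pools. The arrays lay on 4 slides, each with 2 arrays of either maternal diet and of 1 offspring diet. All CR arrays were scanned on 1 day and all AL arrays on another, so scan day and slide cannot be told apart from the offspring diet.

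Sirtuins remove acetyl and other acyl groups from lysines and consume NAD+ in each cycle, releasing nicotinamide, which inhibits them. Nampt converts nicotinamide to nicotinamide mononucleotide and sets the pace of the salvage route that supplies most NAD+ in muscle. SIRT1, SIRT6 and SIRT7 are mainly nuclear, SIRT2 is mainly cytoplasmic, and SIRT3, SIRT4 and SIRT5 reside in mitochondria. In muscle, SIRT1 is known for deacetylating PGC-1alpha and MyoD, and food restriction is a classical setting in which sirtuin activity is studied. Array values reflect mRNA and not enzyme activity.

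The promoters of Sirt1, Sirt2 and Sirt5 are shown because these are the members that passed the test in at least 1 diet comparison, Sirt1 downward and the other two upward. Each is the 250 bases before a RefSeq transcription start in assembly GRCm38.p6, read 5′ to 3′ on the strand of the gene, with capitals for the E-box CACGTG, the motif bound by the clock factors CLOCK and BMAL1 and by MYC. They lie at chr10:63339036-63339285 (minus strand), chr7:28766502-28766751 (plus strand) and chr13:43365285-43365534 (plus strand), and the Sirt5 start lies inside the annotated span of the gene.
Sirt1: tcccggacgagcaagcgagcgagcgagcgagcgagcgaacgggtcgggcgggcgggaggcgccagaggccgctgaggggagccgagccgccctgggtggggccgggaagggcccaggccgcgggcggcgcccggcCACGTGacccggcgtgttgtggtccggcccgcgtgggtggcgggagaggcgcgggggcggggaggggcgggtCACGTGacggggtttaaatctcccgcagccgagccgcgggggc
Sirt2: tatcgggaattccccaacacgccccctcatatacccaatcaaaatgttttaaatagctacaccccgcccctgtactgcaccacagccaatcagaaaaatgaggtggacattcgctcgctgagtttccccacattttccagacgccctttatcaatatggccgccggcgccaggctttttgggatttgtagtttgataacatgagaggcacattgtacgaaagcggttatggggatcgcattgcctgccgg
Sirt5: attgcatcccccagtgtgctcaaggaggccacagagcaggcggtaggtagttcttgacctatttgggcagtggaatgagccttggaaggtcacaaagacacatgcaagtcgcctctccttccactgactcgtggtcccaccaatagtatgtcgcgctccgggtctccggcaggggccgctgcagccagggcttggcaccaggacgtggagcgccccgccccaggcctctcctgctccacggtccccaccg
The Sirt1 window held 2 E-boxes, 115 to 110 and 43 to 38 bases before the start, and no other motif searched. The windows of Sirt2, Sirt5 and Nampt held none of the 3 motifs searched on both strands, which were the E-box, the FoxO site GTAAACA and the cAMP response element TGACGTCA. No matches overlapped. An E-box occurred in 6.02% of 32851 promoter windows of the same length, the FoxO site in 3.17% and the cAMP response element in 1.55%. Among the 10 windows of the 8 members, only that of Sirt1 held a match. GC content was 79.2% in the Sirt1 window and 75.6% in that of Nampt, against 62.8% for Sirt5, 50.0% for Sirt2 and a median of 52.4% over all windows. These matches describe the letters of the windows and were not tested against the expression data.

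The arrays set the precision of what follows. Between 66.4% and 78.5% of spots were well above background, no spot was saturated, and arrays of the same group correlated at 0.959 to 0.992 over genes. Every level below is the log2 of the processed signal minus the 75th percentile of its array, so that 0 is that percentile and a difference of 1 is a 2-fold difference. Levels of different probes were not compared with each other. The tissue was identified by its markers: all 12 skeletal muscle markers were well above background on every array, with medians of 8.82 to 9.27 on CR arrays and 9.04 to 9.63 on AL arrays. Neuron transcripts were detected under both offspring diets, with higher medians on the AL arrays. The median of 19 measured neuron markers was -5.67 to -4.66 in undernourished CR and -5.16 to -4.70 in control CR. It was -2.10 to -0.08 among undernourished AL arrays and -1.18 to 2.29 in control AL. The log2 summed signal of these markers was 4.98 to 5.07, 4.96 to 5.40, 4.93 to 5.76 and 5.46 to 7.55 in the same 4 groups. Of the 19, every CR array had the same 10 well above background, and every AL array the same 16. Only Gria1 and Gad1 were well above background on no CR array. Medians on CR and AL arrays were -2.31 to -1.29 and -1.65 to 0.30 for 10 oligodendrocyte markers, -3.02 to -2.07 and -2.23 to 0.29 for 6 astrocyte markers, and -4.51 to -2.22 and -3.45 to 1.46 for 15 skin markers. They were -5.17 to -3.02 and -5.25 to -0.86 for 6 liver markers, -1.996 to -1.22 and -1.26 to -0.24 for 9 leukocyte markers, -1.75 to -1.35 and -1.56 to -0.12 for 5 peripheral myelin markers, and 0.36 to 1.54 and 0.32 to 1.46 for 10 adipocyte markers. Results of the members are given below beside a neuron marker index, the median neuron marker signal on a linear scale with the highest array set to 1. It was 1 and 0.688 in control AL replicates 1 and 2, 0.0479 to 0.194 on the other 6 AL arrays and 0.00402 to 0.00814 on the 8 CR arrays. In bulk muscle, fewer cells of a type and less RNA per cell cannot be told apart.

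Calorie restriction was associated with more Sirt2 mRNA under both maternal diets. Sirt5 mRNA was called higher in control offspring only, by 0.51, but differed by a similar 0.45 in undernourished offspring. The control call of Sirt5 was lost with the neuron index in the fit. Calorie restriction was associated with less Sirt1 mRNA in undernourished offspring by the first of the 2 Sirt1 probes, and not by the second. In undernourished offspring limma called 1 of the 7 members higher and 1 lower at an adjusted p under 0.05, where 10.3% of all genes were called higher and 9.83% lower (20.1% in all). In control offspring it called 2 of 7 higher and 0 lower, where 16.8% of all genes were called higher and 15.1% lower (32.0% in all). Averaged over the maternal diets it called 2 higher and 1 lower, against 22.6% and 20.1% of all genes (42.8% in all). The members were thus called about as often as the array as a whole, and their median change was 0.12 in undernourished and 0.08 in control offspring, beside -0.0037 and 0.06 over all genes. In each of the 2 offspring groups, 3 of the 7 members had an unadjusted p under 0.05. Of all 24832 genes, 8577 did in undernourished and 10468 in control offspring. The arrays did not overlap between CR and AL for 3 of 7 members in undernourished offspring, where 26.0% of genes did not overlap, and for 1 of 7 in control offspring, where 31.6% did not.

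**Figure D1:**
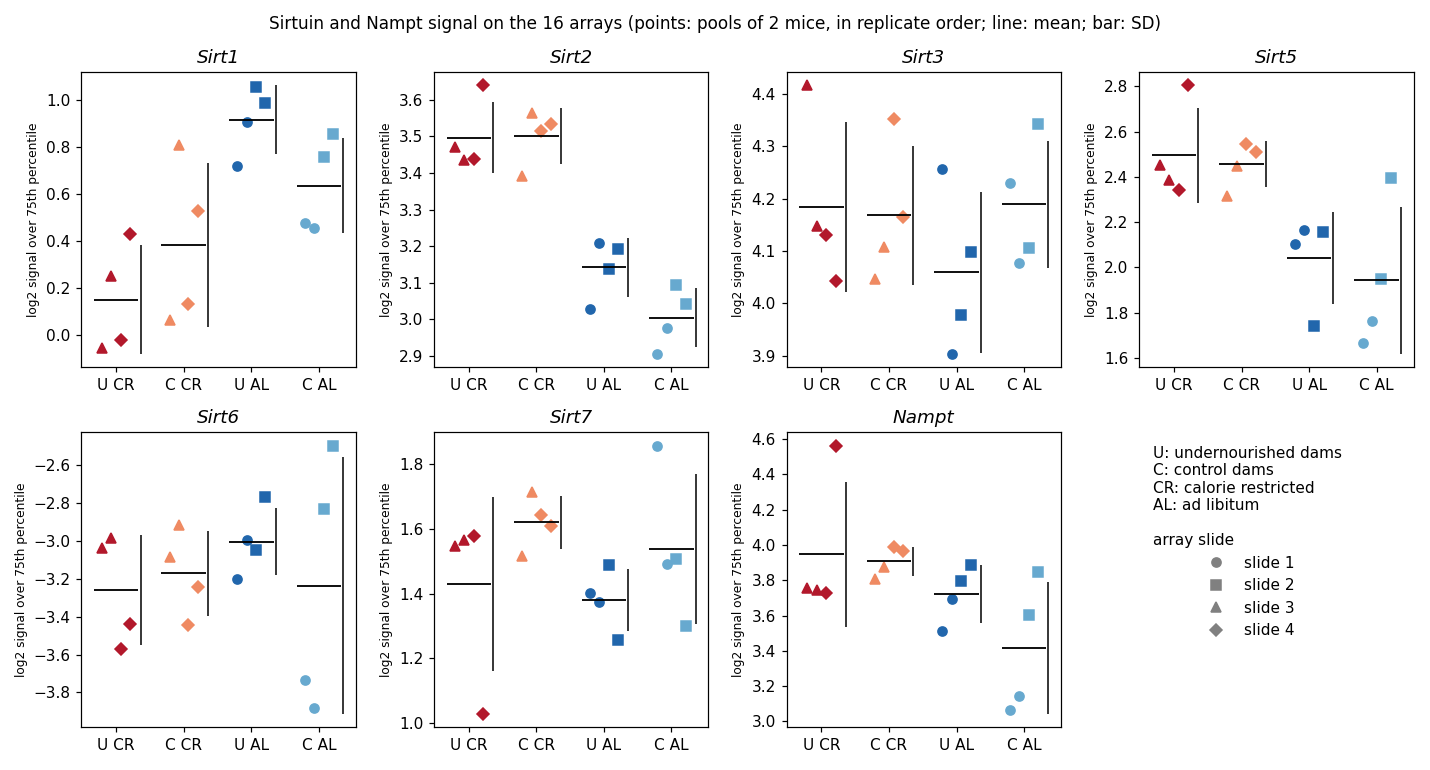
Log2 signal of the 7 measured members relative to the 75th percentile of each array, by group; points are the 4 pools of a group with the shape giving the slide, lines are means and bars SD. All 8 CR points of Sirt2 lie above all 8 AL points, and the undernourished CR points of Sirt1 lie below the undernourished AL points.

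Sirt2, the mainly cytoplasmic sirtuin known as a tubulin deacetylase, lies at chr7:28766752-28788665. It stood at 3.47, 3.44, 3.44 and 3.64 in undernourished CR, against 3.03, 3.21, 3.14 and 3.19 in undernourished AL. It stood at 3.39, 3.57, 3.51 and 3.53 in control CR, against 2.91, 2.98, 3.09 and 3.04 in control AL. Every CR array was above every AL array, as for 6.63% of 24725 genes measured on all arrays. Sirt2 rose by 0.35 ± 0.094 in undernourished offspring (SE, 4 arrays per group, adjusted p = 0.0171), 1.28-fold, and by 0.50 ± 0.094 in control offspring (adjusted p = 0.00132), 1.41-fold. Averaged over the maternal diets the rise was 0.43 ± 0.067 (adjusted p = 0.000175). The order of the group means was control CR at 3.50 ± 0.076, undernourished CR at 3.50 ± 0.097, undernourished AL at 3.14 ± 0.081 and control AL at 3.004 ± 0.081 (SD, n = 4). The means of the 2 CR groups lay within their spread of each other, and the ranges of the 2 AL groups overlapped.

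The other 2 probes of Sirt2 gave the same direction. The second was called in both, with changes of 0.45 ± 0.099 in undernourished and 0.44 ± 0.099 in control offspring (SE, adjusted p over all probes = 0.00564 and 0.00328), and again had every CR array above every AL array. The third differed by 0.37 ± 0.14 in undernourished offspring without passing (adjusted p = 0.0805) and rose by 0.74 ± 0.14 in control offspring (adjusted p = 0.00126). With the neuron index in the fit, the Sirt2 rise was 0.33 (adjusted p = 0.0153) and 0.40 (adjusted p = 0.0388) in undernourished and control offspring. Without the 5 arrays that carry the most skin or liver transcripts, which leaves 1 control AL array whose spread is assumed to be that of the other groups, the differences were 0.37 and 0.46 and no longer passed (adjusted p = 0.0653 and 0.137). Control AL replicates 1 and 2, the arrays with the highest neuron index, had the lowest Sirt2 values of the 16 arrays.

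Sirt5, the mitochondrial sirtuin that removes succinyl, malonyl and glutaryl groups, lies at chr13:43365389-43395203. It stood at 2.45, 2.39, 2.34 and 2.81 in undernourished CR, against 2.11, 2.17, 1.74 and 2.16 in undernourished AL. It stood at 2.32, 2.45, 2.55 and 2.51 in control CR, against 1.66, 1.76, 1.95 and 2.40 in control AL. The undernourished groups did not overlap, while control AL replicate 4 reached into the control CR range. Limma nevertheless called the rise in control offspring, 0.51 ± 0.16 (SE, adjusted p = 0.0263), and not the difference of 0.45 ± 0.16 in undernourished offspring (adjusted p = 0.0623, 95% interval 0.11 to 0.80). The difference between these effects was -0.06 ± 0.23 (adjusted p = 0.943). Averaged over the maternal diets, Sirt5 rose by 0.48 ± 0.12 (adjusted p = 0.00375), but this call was lost with the neuron index in the fit (0.29, adjusted p = 0.0843) and without the 5 arrays with the most skin or liver transcripts (0.22, adjusted p = 0.206). The group means ran from undernourished CR at 2.50 ± 0.21 through control CR at 2.46 ± 0.10 and undernourished AL at 2.04 ± 0.20 to control AL at 1.94 ± 0.33 (SD, n = 4). Of the neighbours in that order, only control CR and undernourished AL did not overlap.

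The call in control offspring was lost when the AL arrays with the most neuron transcripts were left out. Control AL replicates 1 and 2 averaged 1.71 and replicates 3 and 4 averaged 2.17, and without replicates 1 and 2 the change was 0.28 (adjusted p = 0.302). With the neuron index in the fit it was 0.20 (adjusted p = 0.501), and without the 5 arrays with the most skin or liver transcripts 0.06 (adjusted p = 0.885). It was also lost without control AL replicate 1 (0.42, adjusted p = 0.086), control AL replicate 2 (0.45, adjusted p = 0.0767), or control CR replicate 2, 3 or 4 (adjusted p = 0.0524, 0.0651 and 0.0595). The undernourished comparison passed with the replicate number as a block (adjusted p = 0.043), without control AL replicates 1 and 2 (0.45, adjusted p = 0.0388) and without control AL replicate 4 (adjusted p = 0.026). Same-numbered undernourished CR and undernourished AL arrays did not deviate together, with r from -0.145 to 0.0114.

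Nampt, the rate-limiting enzyme of NAD+ salvage, lies at chr12:32820335-32853369. It stood at 3.75, 3.74, 3.73 and 4.56 in undernourished CR, against 3.51, 3.69, 3.80 and 3.89 in undernourished AL. It stood at 3.81, 3.87, 3.99 and 3.96 in control CR, against 3.07, 3.14, 3.60 and 3.85 in control AL. Both pairs of groups overlapped, and the control AL arrays had their lowest values on slide 1. Nampt did not pass in undernourished offspring, with a difference of 0.22 ± 0.20 (SE, adjusted p = 0.465, 95% interval -0.21 to 0.66), or in control offspring, with 0.49 ± 0.20 (adjusted p = 0.0768, 95% interval 0.06 to 0.93). Averaged over the maternal diets the difference was 0.36 ± 0.14 (adjusted p = 0.0561). With the replicate number as a block the control and the averaged differences passed (adjusted p = 0.0273 and 0.0178). Same-numbered control CR and control AL arrays did not deviate together, however, with r from -0.117 to 0.0754. Undernourished CR replicate 4 carried the undernourished difference, which was 0.02 without it (adjusted p = 0.955), and the control difference then passed (adjusted p = 0.0267). Without control AL replicate 4 the control and the averaged differences were 0.64 and 0.43 and passed (adjusted p = 0.0234 and 0.0195). With the authors' log2 values Nampt was higher by 0.80 in undernourished and 0.94 in control offspring (adjusted p = 0.000621 and 0.000121). The group means were 3.95 ± 0.41 in undernourished CR, 3.91 ± 0.082 in control CR, 3.72 ± 0.16 in undernourished AL and 3.41 ± 0.37 in control AL (SD, n = 4). The ranges of neighbours in that order overlapped.

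Its second probe differed by -0.20 ± 0.18 in undernourished offspring and by 0.39 ± 0.18 in control offspring (SE, adjusted p over all probes = 0.472 and 0.116), so both probes pointed upward only in control offspring and neither was called. Control AL replicates 1 and 2 averaged 3.11 for the first probe and replicates 3 and 4 averaged 3.72. With the neuron index in the fit the first probe differed by 0.07 in control offspring (adjusted p = 0.863), and without replicates 1 and 2 by 0.18 (adjusted p = 0.603).

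Sirt1, the nuclear deacetylase of PGC-1alpha, FoxO factors and MyoD, lies at chr10:63319005-63339035. It stood at -0.05, 0.25, -0.02 and 0.43 in undernourished CR, against 0.72, 0.91, 1.05 and 0.99 in undernourished AL. It stood at 0.06, 0.81, 0.13 and 0.53 in control CR, against 0.48, 0.45, 0.76 and 0.85 in control AL. All undernourished CR arrays were below all undernourished AL arrays, while the control groups overlapped. In undernourished offspring Sirt1 fell by 0.76 ± 0.17 (SE, adjusted p = 0.00762), to 0.589 of its AL level. This call was lost with the authors' log2 values (-0.23, adjusted p = 0.243) and with scaling on the skeletal muscle markers (-0.33, adjusted p = 0.192), where the median of all genes was itself 0.24 and 0.43. The difference of -0.25 ± 0.17 in control offspring did not pass (adjusted p = 0.293, 95% interval -0.62 to 0.12). Averaged over the maternal diets Sirt1 fell by 0.51 ± 0.12 (adjusted p = 0.00411), but this average was 0.0037 in the authors' log2 table, whose scaling is not stated (adjusted p = 0.979), and -0.20 with muscle marker scaling (adjusted p = 0.246). The effect of calorie restriction on Sirt1 was not shown to depend on the maternal diet, with an interaction of -0.51 ± 0.25 (unadjusted p = 0.0554, adjusted p = 0.528, 95% interval -1.04 to 0.01).

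The group means of Sirt1 were 0.15 ± 0.23 in undernourished CR, 0.38 ± 0.35 in control CR, 0.64 ± 0.20 in control AL and 0.92 ± 0.15 in undernourished AL (SD, n = 4). Neighbours in that order overlapped. Within slides, undernourished offspring minus control offspring was -0.34 and -0.13 on the CR slides and 0.35 and 0.21 on the AL slides, with 2 arrays of each. The second Sirt1 probe, which the array assigns to the same RefSeq transcript, did not give this pattern. It ranged from -0.28 to 0.44 in undernourished CR, against -0.34 to 0.07 in undernourished AL, and differed by 0.05 ± 0.17 (SE, adjusted p over all probes = 0.85). In control offspring it differed by -0.09 ± 0.17 (adjusted p = 0.712). With the mean of both probes the undernourished difference was -0.36 and did not pass (adjusted p = 0.107). The fall was -0.82 with the neuron index in the fit (adjusted p = 0.00364), and -0.75 without the 5 arrays with the most skin or liver transcripts (adjusted p = 0.0495). It was called in each of the 16 fits that leave out 1 array.

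**Figure D2:**
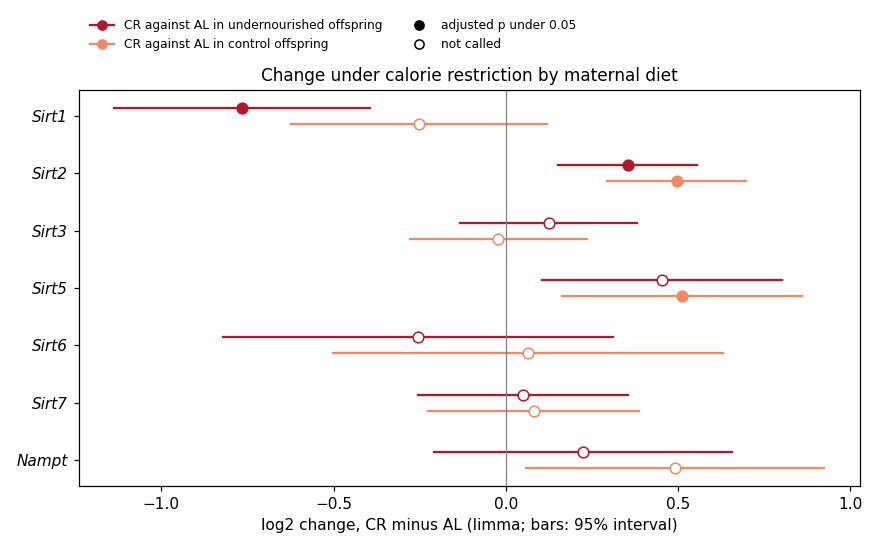
Log2 change of each measured member, CR minus AL, in undernourished (dark) and control offspring (light), with 95% intervals from limma; filled points have an adjusted p under 0.05. Sirt2 lies right of 0 in both, Sirt1 lies left of 0, and the intervals of Sirt3, Sirt6 and Sirt7 include 0. Those of Sirt1 in control offspring and of Nampt in undernourished offspring also include 0.

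**Figure D3:**
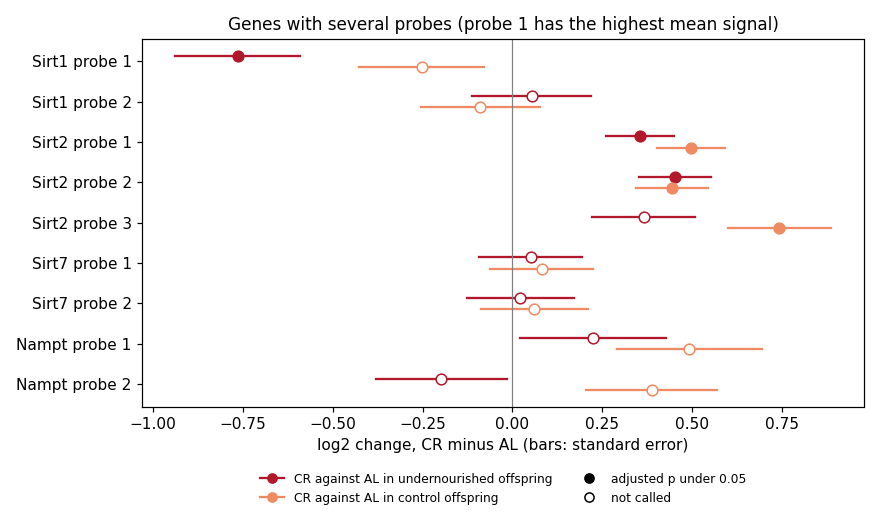
Log2 change, CR minus AL, with standard errors for the 4 members that have more than 1 probe; filled points have an adjusted p under 0.05 over all probes. The 3 probes of Sirt2 lie on the same side of 0, while the second probes of Sirt1 and Nampt lie away from the first in undernourished offspring.

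Sirt3, the main deacetylase of mitochondria, lies at chr7:140863663-140882309. It stood at 4.42, 4.15, 4.13 and 4.04 in undernourished CR, against 4.26, 3.90, 3.98 and 4.10 in undernourished AL. It stood at 4.05, 4.11, 4.35 and 4.16 in control CR, against 4.23, 4.08, 4.11 and 4.34 in control AL. The groups overlapped in both pairs. The differences of 0.12 ± 0.12 in undernourished and -0.02 ± 0.12 in control offspring did not pass (SE, adjusted p = 0.496 and 0.917), with 95% intervals of -0.13 to 0.38 and -0.28 to 0.24. In the authors' log2 table Sirt3 was higher in CR under both maternal diets, by 0.76 and 0.51 (adjusted p = 0.000108 and 0.00244), where the median of all genes was itself higher by 0.24 and 0.29. With the neuron index in the fit the differences were 0.12 and -0.04 (adjusted p = 0.502 and 0.892).

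Sirt7, the nuclear sirtuin of ribosomal DNA, lies at chr11:120618371-120625014, and Sirt6, a chromatin-bound deacetylase with roles in DNA repair and glycolysis, lies at chr10:81621787-81627792. Sirt7 stood at 1.55, 1.57, 1.58 and 1.03 in undernourished CR, against 1.40, 1.37, 1.49 and 1.26 in undernourished AL. It stood at 1.51, 1.71, 1.64 and 1.61 in control CR, against 1.86, 1.49, 1.51 and 1.30 in control AL. Replicate 4 of undernourished CR lay below every AL array, and the groups overlapped. Its differences of 0.05 ± 0.14 in undernourished and 0.08 ± 0.14 in control offspring did not pass (SE, adjusted p = 0.837 and 0.705), and the second probe gave 0.02 ± 0.15 and 0.06 ± 0.15. The 95% intervals of the first probe ran from -0.26 to 0.36 and from -0.22 to 0.39. With the neuron index in the fit its differences were 0.10 and 0.31 (adjusted p = 0.602 and 0.247). In the authors' log2 table Sirt7 was higher in CR by 0.61 under either maternal diet (adjusted p = 0.00268 in undernourished and 0.00228 in control offspring), which is 0.37 and 0.31 above the median of all genes.

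Sirt6 stood at -3.04, -2.98, -3.57 and -3.44 in undernourished CR, against -3.20, -3.00, -3.05 and -2.77 in undernourished AL. It stood at -3.09, -2.91, -3.44 and -3.24 in control CR, against -3.73, -3.88, -2.83 and -2.50 in control AL. Its control AL arrays fell in 2 pairs by slide, with means of -3.81 on slide 1 and -2.66 on slide 2. The processed signal of this probe was 28.7 to 102, where spots well above background began at 4.91 to 10.4, which made it the nearest to background of the 7 members. Its differences of -0.25 ± 0.27 and 0.06 ± 0.27 in undernourished and control offspring did not pass (SE, adjusted p = 0.532 and 0.881), with 95% intervals of -0.82 to 0.31 and -0.50 to 0.63. Averaged over the maternal diets the difference was -0.10 ± 0.19 (adjusted p = 0.711). The direction in control offspring turned to -0.65 with the neuron index in the fit (adjusted p = 0.0785), to -0.51 without control AL replicates 1 and 2 (adjusted p = 0.105), to -0.68 without the 5 arrays with the most skin or liver transcripts (adjusted p = 0.17) and to -0.17 with normexp background correction (adjusted p = 0.288). The average was called lower with the neuron index (-0.53, adjusted p = 0.0176), without control AL replicates 1 and 2 (-0.38, adjusted p = 0.0376), without those 5 arrays (-0.52, adjusted p = 0.0481) and with normexp (-0.26, adjusted p = 0.0231). It was above 0, and not called, with quantile normalization (0.16), the authors' log2 values (0.18) and muscle marker scaling (0.22). The undernourished difference passed with normexp (-0.35, adjusted p = 0.0396) and was 0.07 with the authors' log2 values and 0.18 with muscle marker scaling, without passing.

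The maternal diet gave no call among the members. In CR offspring, undernourished minus control ranged over the 7 members from -0.23 (Sirt1) to 0.04 (Sirt5), and limma called 0 of 24832 genes (0.0%, with 709 at an unadjusted p under 0.05). In AL offspring the members ranged from -0.16 (Sirt7) to 0.31 (Nampt), and limma called 8 of all genes (0.0322%, with 0.0121% higher and 0.0201% lower). The count over all genes was 1971 with the slide as a block and 2288 without control AL replicate 4, and no member was among them. By the probe standing for the gene, none of the 7 members had an unadjusted p under 0.05 in either comparison or in the interaction. In the interaction 1 of all genes was called (0.00403%). The second Nampt probe differed by 0.49 in AL offspring and by -0.59 in the interaction (limma unadjusted p = 0.0166 and 0.039). The third Sirt2 probe differed by 0.35 in AL offspring (unadjusted p = 0.0264). These did not pass over all probes (adjusted p = 0.163, 0.474 and 0.188). With the replicate number as a block, no member was called either. Over the 7 members the 95% intervals reached from -0.65 to 0.48 in CR offspring, both for Sirt6, and from -0.46 (Sirt7) to 0.80 (Sirt6) in AL offspring.

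**Figure D4:**
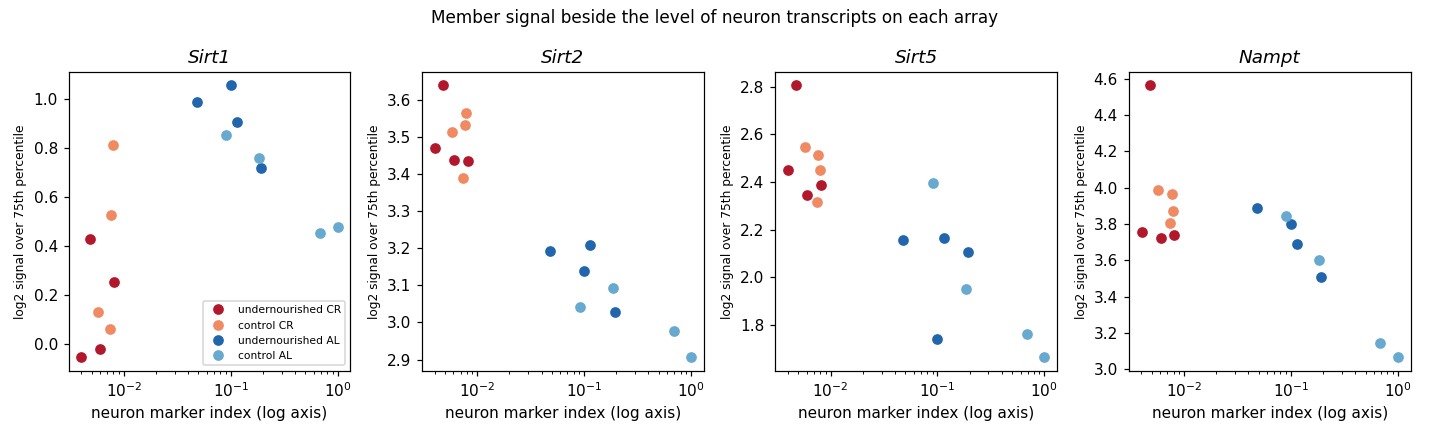
Log2 signal of Sirt1, Sirt2, Sirt5 and Nampt (relative to the 75th percentile of the array) against the neuron marker index of the same array on a log axis, 1 point per array and colours by group. The 8 CR arrays sit at an index of 0.00402 to 0.00814 and the 8 AL arrays at 0.0479 to 1, so the offspring diets do not overlap in the index.

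Members varied together to different degrees. Over the 16 arrays Sirt2 and Sirt5 correlated at 0.86, Sirt5 and Nampt at 0.83, and Sirt2 and Nampt at 0.77, and after the 4 group means were taken off these were 0.60, 0.77 and 0.79. Sirt1 and Sirt2 correlated at -0.47 over the 16 arrays and at 0.72 within groups. Sirt7 correlated with Nampt at -0.57 and at -0.83 within groups. Undernourished CR replicate 4 had the lowest Sirt7 value and the highest Nampt, Sirt2 and Sirt5 values of the 16 arrays. The correlations without that array were not tested. These 16 points share diet groups, slides and scaling, and the values are given as a description.

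The genes whose levels followed each member most closely were taken as the 3 highest Pearson correlations over the 16 arrays. For Sirt2 these were Nde1, a dynein regulator, at 0.983, Nrbp1 at 0.982 and Gps2, a subunit of the NCoR corepressor complex, at 0.973. For Sirt5 they were Mrpl13 at 0.980, Dnajc15 at 0.9748 and Mrps24 at 0.973, of which Mrpl13 and Mrps24 encode mitochondrial ribosomal proteins and Dnajc15 a mitochondrial chaperone partner. For Nampt they were Hspa9, the mitochondrial heat shock protein mortalin, at 0.976, Hibadh, an enzyme of valine breakdown, at 0.959 and Slc7a6os at 0.956. Sirt1 was closest to Ythdf2, a reader of methylated mRNA, at 0.946, Foxn2 at 0.936 and the proteasome subunit Psma5 at 0.925. Sirt6 was closest to Chst4 (0.962), Olfr357 (0.958) and Bsnd (0.918), Sirt7 to Pgs1 (0.850), Acap3 (0.848) and Elmo2 (0.843), and Sirt3 to Gnb1l (0.75), Mtg1 (0.725) and Msra (0.714). Among these genes, Ythdf2 fell by 0.69 in undernourished CR offspring (adjusted p = 0.00486), with means of 1.25 ± 0.18 in CR and 1.94 ± 0.15 in AL (SD, n = 4). Nde1 rose by 0.64 in undernourished and 0.89 in control offspring (adjusted p = 0.00151 and 8.06e-05).

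The NAD+ pathway around the sirtuins was described by 2 lists, chosen with earlier results of these data known. These lists and those that follow were not fitted with the neuron index. Of all genes, 10.3% were called higher and 9.83% lower in undernourished offspring, and 16.8% and 15.1% in control offspring. The shares of the lists were not tested against these. Of 20 genes of NAD+ synthesis, 14 were tested: 2 rose and 0 fell in undernourished offspring (median 0.13, against -0.0037 over all genes), and 3 rose and 2 fell in control offspring (median 0.07, against 0.06). The called share was 14.29% in undernourished and 35.71% in control offspring, against 20.1% and 32.0% of all genes. Afmid, the kynurenine formamidase, rose by 1.03 ± 0.18 in undernourished offspring and by 1.46 ± 0.18 in control offspring (SE, adjusted p = 0.00145 and 6e-05). It averaged -0.66 ± 0.30 in undernourished CR and -1.69 ± 0.24 in undernourished AL (SD, n = 4). Nmrk1, a nicotinamide riboside kinase, rose by 0.50 in undernourished offspring (adjusted p = 0.0457). Slc25a51, the mitochondrial NAD+ carrier, rose by 0.41 in control offspring (adjusted p = 0.0384), where Ido1, a tryptophan dioxygenase, fell by 0.88 and the transporter Slc12a8 fell by 0.52 (adjusted p = 0.00757 and 0.0309).

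Of 20 genes of NAD+ consumption and nicotinamide clearance, 16 were tested: 2 rose and 1 fell in undernourished offspring (median 0.16), and 6 rose and 3 fell in control offspring (median 0.22). The called share was 18.75% and 56.25%, against 20.1% and 32.0% of all genes, whose medians were -0.0037 and 0.06. Parp16, a poly(ADP-ribose) polymerase family member, rose by 0.71 and 0.78 in undernourished and control offspring (adjusted p = 0.00665 and 0.00197). Parp9 rose by 0.41 in undernourished offspring (adjusted p = 0.0259), and Nudt12, a peroxisomal NADH hydrolase, fell there by 0.57 (adjusted p = 0.00464). In control offspring Parp1, the main DNA damage polymerase, rose by 0.81 and Aox1, aldehyde oxidase, by 0.62 (adjusted p = 0.00411 and 0.0108). Sarm1, the NAD+ hydrolase of axons, fell by 1.35 in control offspring (adjusted p = 0.00812). Its level there was -6.48 ± 0.26 in CR and -5.13 ± 0.55 in AL (SD, n = 4), highest on the AL array with the highest neuron index. On the CR arrays its signal lay near the start of spots well above background, so the size of this fall is uncertain.

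Of 24 regulators and targets of SIRT1, 22 were tested: 6 rose and 1 fell in undernourished offspring (median -0.08), and 8 rose and 2 fell in control offspring (median 0.32). The called share was 31.82% and 45.45%, against 20.1% and 32.0% of all genes, whose medians were -0.0037 and 0.06. Myod1, the myogenic factor, rose by 1.48 and 2.32 (adjusted p = 0.0197 and 0.000744). Per2, a clock repressor, rose by 1.63 and 1.87 (adjusted p = 0.000844 and 0.000151), and Srebf1, a regulator of lipid synthesis, by 1.13 and 1.12 (adjusted p = 0.0157 and 0.00961). Hes1, a Notch target, rose by 1.03 in undernourished offspring (adjusted p = 0.000514), and Arntl, which encodes the clock activator BMAL1, fell by 1.12 in control offspring (adjusted p = 0.0273). Per2 averaged 0.47 ± 0.19 in undernourished CR and -1.16 ± 0.60 in undernourished AL (SD, n = 4), with no overlap. In control offspring it averaged 0.83 ± 0.094 under CR and -1.04 ± 0.43 under AL, again with no overlap. The hours of dissection are not given in the sources used here. Named after their values were seen, Rps19bp1, which encodes the SIRT1 activator AROS, rose by 0.61 and 0.63 (adjusted p = 0.00425 and 0.00165), and Ppargc1a, which encodes PGC-1alpha, differed by -0.61 ± 0.60 and 0.15 ± 0.60 (SE, adjusted p = 0.502 and 0.875).

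Of 25 substrates of the mitochondrial sirtuins, 24 were tested: 5 rose and 4 fell in undernourished offspring (median 0.10), and 8 rose and 2 fell in control offspring (median 0.26). Idh2, the NADP+-dependent isocitrate dehydrogenase that SIRT3 deacetylates, rose by 1.003 and 1.16 (adjusted p = 0.00976 and 0.00218). Mlycd, malonyl-CoA decarboxylase, fell by 0.88 and 0.91 (adjusted p = 0.01 and 0.00458). Pdha1, a pyruvate dehydrogenase subunit, rose by 0.54 in undernourished offspring (adjusted p = 0.0421) and Ogdh, of the oxoglutarate dehydrogenase complex, by 1.05 in control offspring (adjusted p = 0.00102). Of 11 zinc-dependent histone deacetylases, the other deacetylase family, 10 were tested: 2 rose and 0 fell under either maternal diet, with medians of 0.20 in undernourished and 0.18 in control offspring. Hdac3 rose by 0.46 and 0.52 (adjusted p = 0.0043 and 0.000999), Hdac6, a cytoplasmic tubulin deacetylase, by 0.50 in undernourished offspring (adjusted p = 0.015) and Hdac7 by 0.90 in control offspring (adjusted p = 0.000584). The called share of the substrates was 37.5% in undernourished and 41.67% in control offspring, and that of the histone deacetylases 20.0% in either. Of all genes, 20.1% and 32.0% were called, with medians of -0.0037 and 0.06.

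Across the 12 other ways of processing, Sirt2 was called in 11 in undernourished and in 11 in control offspring. Sirt1 was called in 9 in undernourished and in 0 in control offspring, Sirt5 in 6 and 9, and Nampt in 2 and 4.

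**Figure D5:**
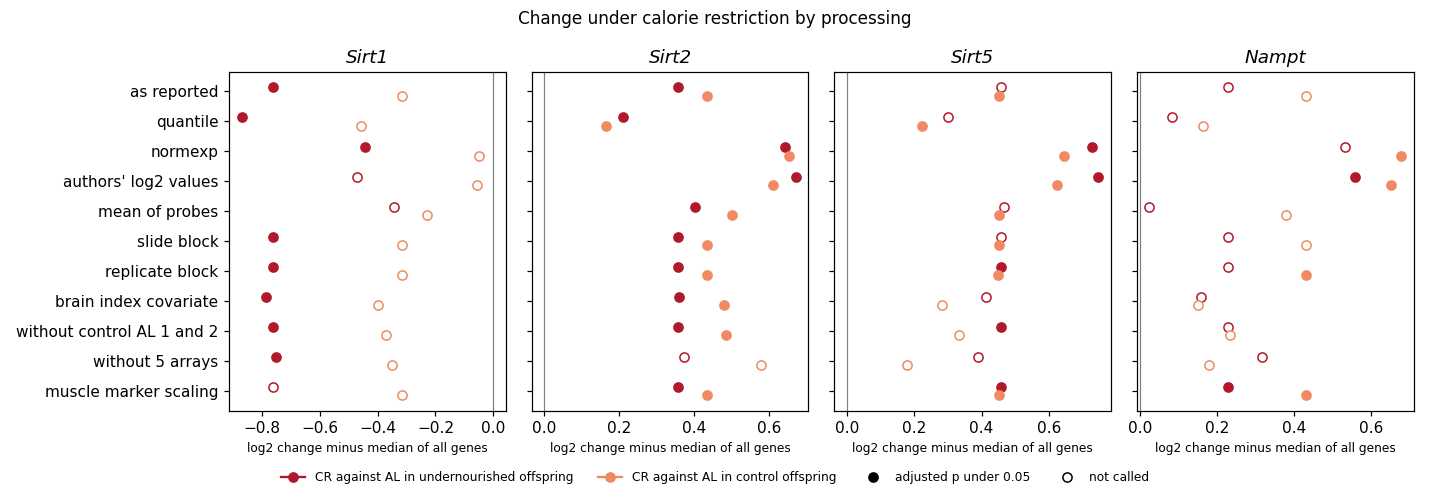
Change of Sirt1, Sirt2, Sirt5 and Nampt, CR minus AL, minus the median change of all genes, under each way of processing; filled points have an adjusted p under 0.05. Sirt2, Sirt5 and Nampt lie above 0 and Sirt1 below 0 in every row. Each of these genes varies between rows in whether it passes, and Sirt1 in control offspring passes in none. The muscle marker row repeats the positions of the reported fit, because that scaling shifts all genes of an array alike.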

How the data were processed

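RNA was extracted with Trizol and DNase-treated, and Cy3 target was made from 200 ng of it for 1-colour Agilent arrays, per the labels' protocols. Each array has a scanner file from Agilent Feature Extraction 10.5.1.1, per the submitters' processing notes. Its processed signal is the deposited intensity of a spot after background subtraction and spatial detrending, per the file headers. The deposited processed signal has 3 significant digits on the CR arrays and 7 on the AL arrays. The deposited median signal and local background intensities of each spot served for normexp correction, an alternative, and the flags of 0 or 1 (above background, saturated, outlier) for filters. The authors' deposited table of log2 values was used as an alternative, and how it was normalized is not stated in the labels or headers.

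Control and outlier spots (53 to 176 per array) were left out, the 10 spots of 245 repeated probes averaged, and the log2 75th percentile of each array (376.6 to 807 in signal) subtracted. The filter kept 32086 probes that were well above background on 4 or more arrays. RefSeq accessions matched 24844 probes to 17178 symbols of GRCm38.p6, and 16330 kept the file's name. The probe of the highest mean stood for a gene. The fit used limma 3.58.1 (lmFit, eBayes; R 4.3.3) with a mean for each of the 4 groups over 16 arrays and two-sided tests, with Benjamini-Hochberg adjustment over 24832 genes. On simulated data of the control comparison with 24725 genes, 10 of 100 genes changed by 0.5 log2 units and 55 of 100 changed by 1 were called, with 2 false calls. Only 100 genes changed there, while 7934 were called in the reported control comparison, and the adjustment depends on that share. These rates therefore do not give the sensitivity of the reported fit. Same-numbered AL arrays of the maternal diets deviated together (r = 0.394, 0.123, 0.113 and 0.441), so the replicate number was also fitted as a block, and these arrays also share slides. In the other pairs of groups not all correlations were above 0.1. Members, gene lists, marker lists and alternatives were chosen with earlier results of these data known. The rule for names took every member, up to 4 called genes of largest change per pathway list and offspring group, and the 3 nearest genes by correlation per member. A gene that this rule picked is not reported here. Probe sequences were not used here.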

Additional observations from a re-analysis of the deposited data

Results flagged for a closer look

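In 3 of 28 sets of 4 arrays (7 members in 4 groups), 1 array lay apart from the other 3 by Dixon's gap test at the 95% level, which chance does in about 1 in 20 such sets. Sirt5 stood at 1.74 in undernourished AL replicate 3, where the other 3 arrays were at 2.11 to 2.17. Sirt7 stood at 1.03 in undernourished CR replicate 4, where the others were at 1.55 to 1.58. Nampt stood at 4.56 in the same undernourished CR replicate 4, where the others were at 3.73 to 3.75. Without that array the Nampt difference in undernourished offspring was 0.02, against 0.22 with it.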

How the results depend on the processing

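Over 12 alternatives and 16 fits that leave out 1 array, no member was called for the maternal diet or the interaction. The number of members called for calorie restriction was 2 in undernourished, 2 in control offspring and 3 on average, where 20.1%, 32.0% and 42.8% of all genes were called. The number of all genes called also changed with the setting, as counted further below for some of them. The counts of members are therefore not read as a result about the members. The number of members called changed as follows. It was 4 in undernourished, 3 in control offspring and 5 on average with normexp background correction, 5 in all 3 comparisons with the authors' log2 values, and 1 in undernourished offspring and 2 on average with the mean of a gene's probes. It was 3 in undernourished offspring and 4 on average with probes well above background on all 16 arrays, without control AL replicates 1 and 2, and with the replicate block, which gave 3 in control offspring. In control offspring it was 1 with the neuron index as a covariate, 1 without control AL replicates 1 and 2, and 0 without the 5 arrays with the most skin or liver transcripts, which gave 1 in undernourished offspring. Scaling on the skeletal muscle markers, chosen after seeing the data, gave 4 in undernourished, 3 in control offspring and 5 on average. The average stayed at 3 with the neuron index and without the 5 arrays, with Sirt6 in place of Sirt5. Leaving out 1 array gave 2 to 3 in undernourished offspring, 3 to 4 on average and 1 to 3 in control offspring, with 1 (Sirt2) without control AL replicate 1 or 2 or control CR replicate 2, 3 or 4. In the authors' table, values that were called here or there and changed sign were Sirt3 in control offspring (0.51, adjusted p = 0.00244) and Sirt1 on average (0.0037). Called in neither, Sirt1 in control offspring was 0.24, and Sirt6 was 0.07 in undernourished offspring and 0.18 on average. Over all members, comparisons and alternatives, 55 values, these included, differed in sign and were called in neither, and 25 when 1 array was left out. Sirt1 in undernourished offspring did not pass with the authors' values (-0.23, adjusted p = 0.243) or muscle marker scaling (-0.33, adjusted p = 0.192). The cause was not tested, but scaling moved the median of all genes: in undernourished offspring it was 0.08 with quantile normalization, -0.24 with normexp, 0.24 with the authors' values and 0.43 with muscle markers, and in control offspring 0.16, -0.17, 0.29 and 0.25. Of the genes called, 51.1% in undernourished and 52.6% in control offspring were higher, and in this order of scalings 62.5% and 62.9%, 22.6% and 33.04%, 87.1% and 81.3%, and 91.8% and 73.2%.

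Relative to those medians and by first probes, Sirt2, Sirt5 and Nampt were higher and Sirt1 lower in both offspring groups under every scaling. Nampt passed in neither group with quantile normalization. Muscle marker scaling shifts all genes of an array alike, so it could not alter these relative values. In control offspring Sirt1 lay only -0.048 from the median with normexp and -0.056 with the authors' values, and was not called. Of all genes, 4993 were called in undernourished and 7934 in control offspring. The counts were 12961 and 12017 with normexp, 11858 and 13999 with the authors' values, 10037 and 12284 with no filter on dim probes, 10496 and 8922 with muscle marker scaling, and 3539 and 887 without the 5 arrays. In control offspring they were 3376 with the neuron index and 4381 without control AL replicates 1 and 2. In AL offspring 8 genes were called for maternal diet, against 1971 with the slide as a block and 2288 without control AL replicate 4, none a member. With the replicate number as a block, Nampt in control offspring (0.49, adjusted p = 0.0273) and on average and Sirt5 in undernourished offspring (0.45, adjusted p = 0.043) passed, and no other member changed its call. The same-number check, r = 0.0754, -0.117, -0.0501 and -0.0218 between control CR and control AL, did not pair those arrays. Sirt6, with a signal of 28.7 to 102, is nearest to background.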
